A study of Mus musculus with 6 samples.

Results

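The complement system of the liver was followed through 33 genes of the deposited table, found by their gene symbols and grouped as classical pathway, lectin pathway, central component, alternative pathway, terminal pathway, regulators and receptors. All 33 were among the 32597 genes listed. Complement is a cascade of plasma proteins, most of them secreted by hepatocytes, that tags and lyses microbes. Its 3 routes of activation are started by antibody-bound C1q (classical), by sugar-binding lectins (lectin) or by spontaneous turnover of C3 that factor B and factor D amplify (alternative). They converge on cleavage of C3 and C5, after which C6, C7, C8 and C9 join C5b to form the membrane attack complex, a pore in the target membrane.

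Liver RNA came from wild type male C57BL/6 mice, an inbred strain, at 2 ages. The adult group was 6 months old. The young group was 3 weeks old by the sample titles, 3 to 4 weeks by the age field and 1 month by the title of the series. Each age had 3 libraries, and each library was a pool of RNA from 3 mice, so 9 mice stand behind each age. The table holds a single FPKM value per gene and age (fragments counted on a gene, scaled by transcript length and library size), already combined by the authors over the 3 pools. No SD can therefore be given, the depth behind each value is unknown, and the authors' q-value (their adjusted p) is the only measure of error. How it was computed from the pools is a point not given in the sources used here, and the spread between single animals is unknown.

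A gene was compared if it had the test status OK and reached 1 FPKM at either age. It was called if its q in the authors' deposited table was below 0.05. Differences are given as log2((adult FPKM + 1)/(young FPKM + 1)), a scale that understates changes of weakly expressed genes. Hepatocyte markers were abundant, as in liver: their 11 genes summed to 45413 FPKM in adult and 58513 in young liver. Of the 10 that were compared, 2 were higher and 8 lower in value in adults, with a median log2 difference of -0.30. Only Ahsg was called, as lower. The albumin gene Alb was listed at 0 at both ages with the status LOWDATA, so the table gives no estimate for it. In whole tissue, fewer cells of a type and less RNA per cell cannot be told apart.

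The members called were C6, C9, C4a and Cfd, and each was higher in adult liver. Of the 31 members compared, 4 were called higher and 0 lower, or 12.9%. Over all 11741 genes compared, 7.47% were called, 3.99% as higher and 3.48% as lower in adults. The members' share is thus above that of all genes, but it rests on 4 genes, and the difference between the shares was not tested. Of these genes, Cfd passed the level filter only through its adult value and could only be higher. The members were also chosen with earlier results of these data known. At an unadjusted p under 0.05, 10 of the 31 members passed, 7 higher and 3 lower, or 32.3%, against 16.1% of all genes. The members compared had a median level percentile of 95.7, and neither comparison of shares was matched for level. The median log2 difference of the members was 0.07, against 0.00326 for all genes compared. C7 and C5ar1 stayed under 1 FPKM at both ages and were not compared.

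Most members kept to a narrow range. A difference under 1.5-fold was found in 27 of the 31, or 87.1%, and in 89.9% of all genes compared. The 4 members outside that range were the 4 called ones. Summed over the 33 genes, complement transcripts reached 9432 FPKM in adult and 9520 in young liver, which is 1.23% and 1.25% of the FPKM summed over all 32597 genes listed. That total counts Alb at 0 for want of an estimate, so both shares are too high by an unknown amount. Complement transcripts were abundant: 17 of the 31 members compared lay at or above the 90th percentile of level among all genes compared.

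**Figure D1:**
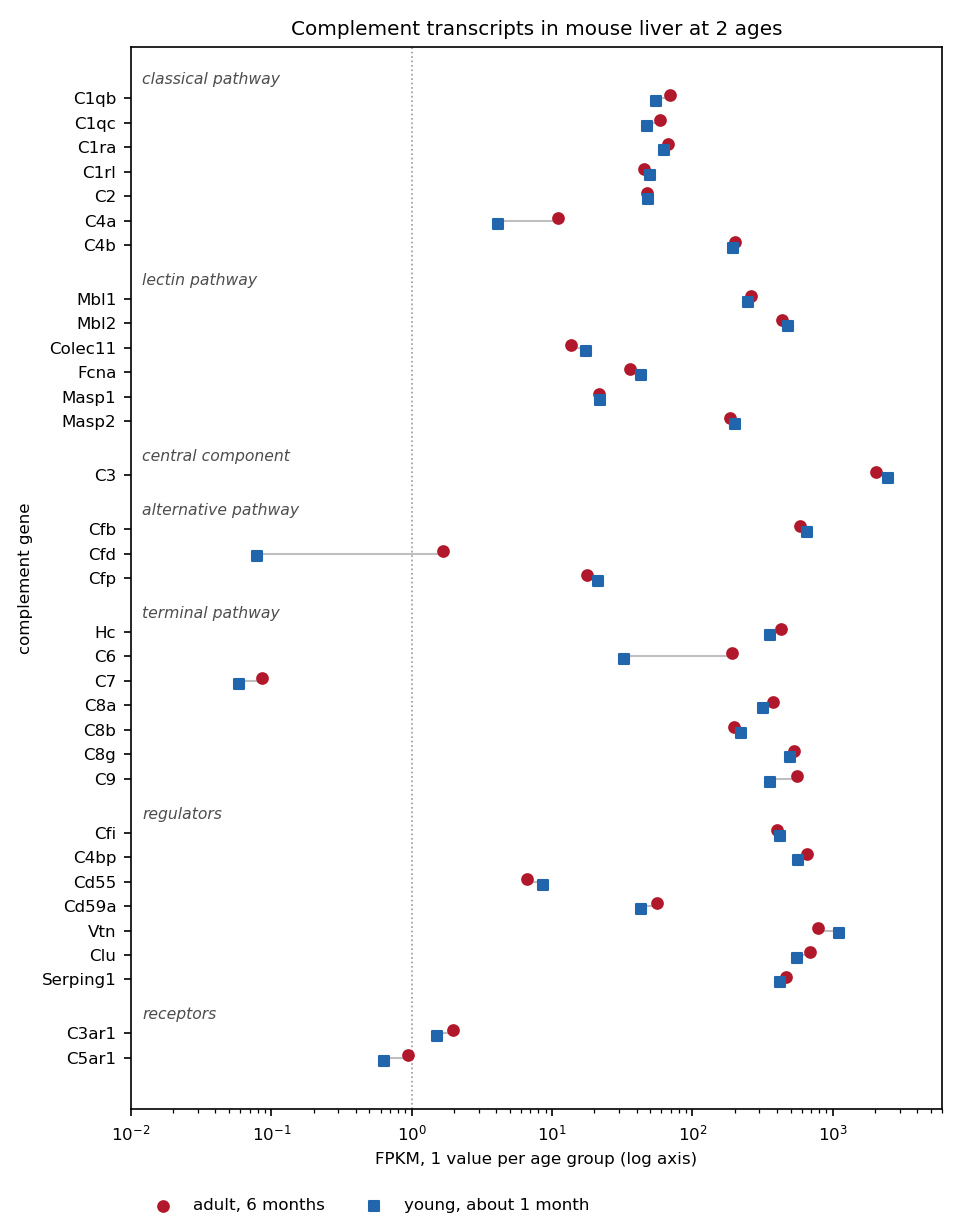
FPKM of the 33 complement genes on a log axis, with adult liver as red circles and young liver as blue squares, 1 value per age group and no error bars because the table holds none; the dotted line marks 1 FPKM. Most pairs of points lie close together, while C6, C4a and Cfd lie apart, with Cfd at 1.68 FPKM in adult and 0.0794 in young liver.

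The terminal pathway held the largest difference among the members on the FPKM + 1 scale; by the plain ratio of FPKM, Cfd was ahead. C6, which binds C5b and starts the assembly of the pore, stood at 191 FPKM in adult liver against 32.7 in young liver. It was called higher (log2 difference 2.51, a 5.84-fold ratio of FPKM, q = 0.00189 in the authors' deposited table). That q is the smallest in the table and is shared by many genes. By log2 difference C6 ranked 21 among the 469 genes called higher. C9, whose many copies form the wall of the pore, was at 555 FPKM in adult liver and 357 in young liver. It too was called higher, by a smaller margin (log2 difference 0.64, q = 0.00189 in the authors' deposited table).

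The other terminal components differed little between the ages, and none of them was called. Hc, the mouse gene for C5, was at 424 FPKM in adult and 355 in young liver, with q = 0.944 in the authors' deposited table. The 3 chains of C8, which insert the complex into the membrane, did not share a direction. C8a, the alpha chain, was at 377 FPKM in adult and 316 in young liver. C8b, the beta chain, was at 199 FPKM in adult and 220.3 in young liver. C8g, the gamma chain, which belongs to the lipocalin family, was at 525 and 494 FPKM in adult and young liver. C7, which anchors the growing complex to the membrane, was nearly undetected in liver, at 0.0862 FPKM in adults and 0.0593 in young mice.

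C6 made up a larger share of the terminal transcripts in adults. It came to 8.40% of the summed terminal FPKM in adult and 1.84% in young liver. For each unit of Hc there were 0.449 units of C6 in adult and 0.0921 in young liver, on the FPKM scale, which corrects for transcript length. C6 was the lowest of the terminal transcripts other than C7 at both ages, but in adult liver it stood close to C8b, the next lowest, at 191 and 199 FPKM. The terminal transcripts together came to 2271 FPKM in adult and 1775 in young liver, a ratio of 1.28.

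**Figure D2:**
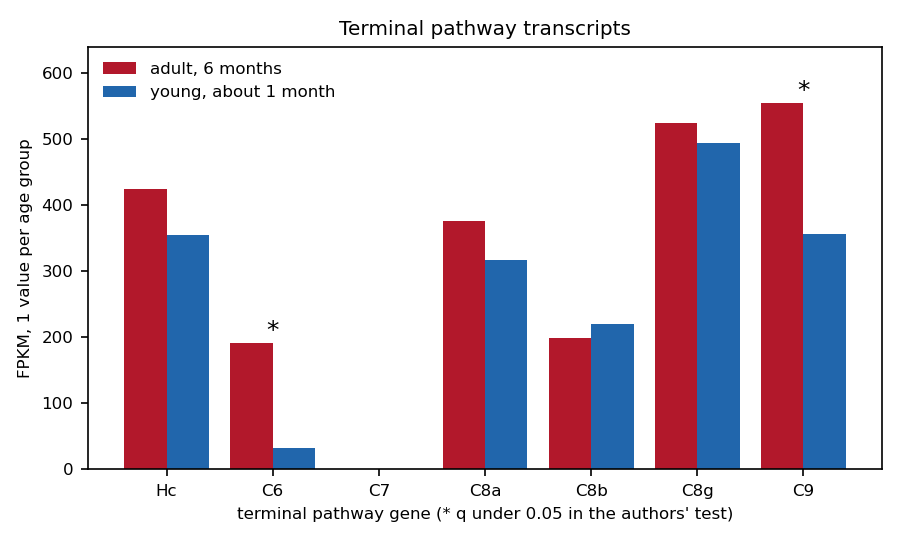
FPKM of the 7 terminal pathway genes, adult liver as red bars and young liver as blue bars, 1 value per age group without error bars; stars mark genes with a q-value under 0.05 in the authors' test. C6 stands at 191 FPKM in adults against 32.7 in young mice, C9 at 555 against 357, and C7 is too low to be seen.

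C6, C7 and C9 lie on chromosome 15 and encode related proteins of the same pore-forming family. On GRCm38, in the table's coordinates, C6 spans 4727175 to 4815456 on the plus strand, C7 4988762 to 5063773 on the minus strand and C9 6445327 to 6498751 on the plus strand. The start of C9 lies 1718 kb from that of C6. In the stretch from 1 Mb before C6 to 1 Mb after C9, 14 genes were compared, and C6 and C9 were the only 2 called. The stretch was drawn around these 2 genes. Of the 12 others compared, 0 were called, against 7.47% of all genes compared. With so few genes the difference was not tested. The genes between and around them that are named here were chosen after their values were seen. Rpl37, a ribosomal protein gene, was at 122 FPKM in adult and 135 in young liver. Lifr, a cytokine receptor gene, was at 86.0 and 96.0 FPKM in adult and young liver. Fyb, the nearest compared gene beyond C9, was at 4.45 FPKM in adult and 2.197 in young liver. Its log2 difference of 0.77 was larger than the 0.64 of C9, with q = 0.182 in the authors' deposited table. None of these genes beside C9 was called. Snord72, a small nucleolar RNA, was at 12.1 FPKM in adult liver and listed at 0 in young liver, with q = 0.741 in the authors' deposited table.

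**Figure D3:**
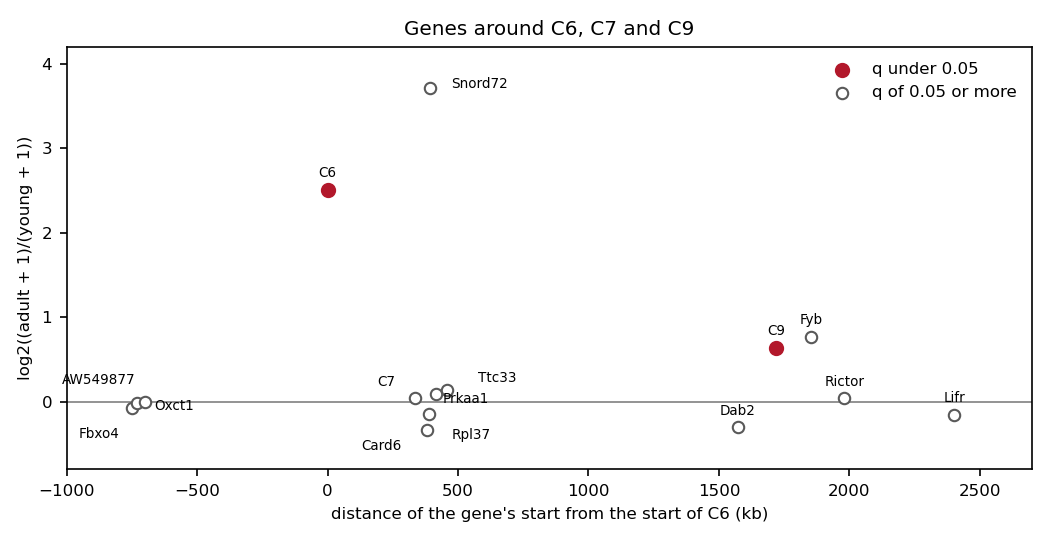
Log2 difference, adult over young on the FPKM + 1 scale, of C7 and of the genes compared around C6 and C9, plotted by the distance of each gene's start from that of C6 in kb; filled points have a q-value under 0.05 in the authors' test. C6 at 2.51 and C9 at 0.64 are the filled points, and the unfilled Snord72 is listed at 0 in young liver.

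Promoter sequences are shown for the called members, because these are the genes whose levels the results turn on. They come from RefSeq on GRCm38.p6, run from 250 bases before to 50 bases after RefSeq's start site, and read 5′ to 3′ on the gene's strand. For C6 and C9 that site lies downstream of the start in the gene coordinates given above. Of the 33 members 25 had an entry; C2, C4a, C4b, Masp1, Cfb, Cfi, Clu and Serping1 had none. Capitals mark TTNNGNAAT, the core of sites for C/EBP factors, which drive many liver and acute phase genes. The other 2 motifs searched on both strands, TTCNNNGAA for STAT factors and GGNNTTTCC for NF-kB, do not occur in these 3 windows. The C6 window is chr15:4726960-4727259 (plus strand), that of C9 chr15:6445096-6445395 (plus strand) and that of Cfd chr10:79890603-79890902 (plus strand).
C6: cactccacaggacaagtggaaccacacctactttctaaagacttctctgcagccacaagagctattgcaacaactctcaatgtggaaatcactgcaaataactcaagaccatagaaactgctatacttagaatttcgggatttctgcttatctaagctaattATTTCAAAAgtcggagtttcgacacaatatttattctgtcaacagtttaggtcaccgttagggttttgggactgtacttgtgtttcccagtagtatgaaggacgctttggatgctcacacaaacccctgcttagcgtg
C9: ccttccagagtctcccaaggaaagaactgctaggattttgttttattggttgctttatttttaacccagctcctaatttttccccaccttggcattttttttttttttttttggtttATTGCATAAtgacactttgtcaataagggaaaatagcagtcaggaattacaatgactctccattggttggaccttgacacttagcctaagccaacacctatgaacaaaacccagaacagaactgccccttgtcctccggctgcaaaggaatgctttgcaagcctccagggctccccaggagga
Cfd: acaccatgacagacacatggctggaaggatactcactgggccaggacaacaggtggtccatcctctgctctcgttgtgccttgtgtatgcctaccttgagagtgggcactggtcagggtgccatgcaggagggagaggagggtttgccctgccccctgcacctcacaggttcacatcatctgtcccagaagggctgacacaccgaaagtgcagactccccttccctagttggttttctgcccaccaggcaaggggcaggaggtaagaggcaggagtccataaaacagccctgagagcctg

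The C6 and C9 windows each hold a single match to TTNNGNAAT, on the strand opposite to the gene. Counted from RefSeq's start site, the leftmost base of the match lies at -88 in C6 and -133 in C9. The Cfd window holds no match. Among the 25 members with an entry, 7 hold the motif (C1ra, C3, C6, C7, C9, Fcna and Hc). That is 26.9% of the 26 member promoters, against 11.5% of the 32851 promoters of the same length that were searched. Promoters on chromosome 18, which holds no member, were left out of the search. TTCNNNGAA was found in 6 members (C1ra, C7, C8a, Colec11, Masp2 and Vtn), or 23.1% of member promoters, against 8.30% of all promoters searched. GGNNTTTCC was found in 2 members (C1rl and C3ar1), or 7.69% of member promoters, against 5.82% of all promoters searched. Of the 7 members with TTNNGNAAT, only C6 and C9 were called. None of the members with TTCNNNGAA or GGNNTTTCC was called. A match of letters is a description and not a binding site.

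In the classical pathway, 1 of 7 members was called, C4a, and the rest were not. C4a is the mouse copy of C4 known as sex-limited protein, whose expression depends on androgens in some strains. It was at 10.97 FPKM in adult against 4.14 in young liver, and was called higher (log2 difference 1.22, q = 0.00189 in the authors' deposited table). C4b, the gene for the C4 that is cleaved in the classical and lectin routes, was at 200.4 FPKM in adult and 196 in young liver, with q = 0.997 in the authors' deposited table. C4a thus stood at 0.0547 of the C4b level in adult and 0.0211 in young liver.

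The split between the 2 C4 genes is uncertain. They lie 65.2 kb apart on chromosome 17, C4b at 34728380 to 34743882 and C4a at 34809092 to 34823464, both on the minus strand. In GENCODE M21, 33.1% of the 50-base words in C4a transcripts also occur in C4b transcripts, so reads from these stretches could be assigned to either. The deposited table lists C4a as a processed transcript, not as protein coding. The placing of reads that match both genes is a detail not given in the sources used here. C4b exceeded C4a 18.3-fold in adult and 47.3-fold in young liver.

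The C1q genes, which encode the chains of the antibody-binding unit and are made mainly by macrophages, were higher in value in adults without being called. C1qb was at 69.0 FPKM in adult and 55.1 in young liver, with p = 0.0382 and q = 0.32 in the authors' deposited table. C1qc was at 59.1 FPKM in adult and 47.5 in young liver, with p = 0.0434 and q = 0.345 in the authors' deposited table. C1qa, the third chain and not a member, was at 68.4 and 54.9 FPKM in adult and young liver, with p = 0.0441 and q = 0.349 in the authors' deposited table. The 3 genes lie side by side on chromosome 4 and had nearly the same log2 difference, 0.32, 0.31 and 0.31. Macrophage markers were mixed: of 9 compared, 5 were higher and 4 lower in value in adults, and 3 were called, Cd5l, Marco and Ctss, all higher. The list summed to 322 FPKM in adult and 259 in young liver, a difference carried mainly by Ctss and Cd5l. Clec4f, a lectin of Kupffer cells (the liver's macrophages), lay the other way, at 57.7 FPKM in adult and 79.6 in young liver, with p = 0.0327 and q = 0.291 in the authors' deposited table. No macrophage marker in the table was at 0, and their part in the C1q values was not tested.

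The remaining classical genes were close to level. C1ra, the protease that activates C1s, was at 66.8 FPKM in adult and 62.3 in young liver; 48.0% of its 50-base words occur in its copy C1rb, which was listed at 0.0221 and 0.0195 FPKM in adult and young liver. C1rl, a C1r-like protease, was at 45.5 FPKM in adult and 50.1 in young liver. C2, the protease of the C3 convertase of this route, was at 47.3 FPKM in adult and 48.0 in young liver. Of C2's 50-base words, 39.5% occur in the overlapping read-through model Gm20547, as do 73.0% of those of its neighbour Cfb. Gm20547 was at 12.5 FPKM in adult and 13.4 in young liver.

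None of the 6 lectin pathway genes was called, and 5 of the 6 were lower in value in adults, with a median log2 difference of -0.13. The mannose-binding lectins Mbl1 and Mbl2, collectins that recognise microbial sugars, were the most abundant of the group. Mbl1 was at 262 FPKM in adult and 249 in young liver, and Mbl2 at 436 in adult and 477 in young liver. The 2 genes lie on different chromosomes and shared no 50-base word, so their levels can be told apart. Colec11, another collectin, was at 13.8 FPKM in adult and 17.6 in young liver, with p = 0.0357 and q = 0.307 in the authors' deposited table. Fcna, a ficolin of macrophages, was at 36.0 FPKM in adult and 42.8 in young liver. The serine proteases that these lectins carry kept their order. Masp2, which cleaves C4 and C2, was at 184 FPKM in adult and 202 in young liver, and Masp1, which activates it, at 21.7 and 21.9 FPKM in adult and young liver. Masp2 overlaps Tardbp, a gene on the opposite strand at 67.4 FPKM in adult and 73.9 in young liver, and strand retention in the libraries is a point not given in the sources used here.

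C3, on which all routes converge, was the most abundant member, at 2048 FPKM in adult and 2462 in young liver, with q = 0.972 in the authors' deposited table. Its log2 difference of -0.27 was not called. In the alternative pathway, Cfb (factor B, the protease of its C3 convertase) was at 582 FPKM in adult and 658 in young liver, and was not called either. Cfp, properdin, which stabilises that convertase and is made by leukocytes, was at 17.9 FPKM in adult and 21.1 in young liver, again not called.

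Cfd, factor D or adipsin, cleaves factor B and is known as a product of fat cells. It was at 1.68 FPKM in adult against 0.0794 in young liver, and was called higher (log2 difference 1.31, q = 0.00494 in the authors' deposited table). The plain ratio of its FPKM was 21.2, and its log2 difference depended on the pseudocount, at 3.31 with 0.1 and 0.396 with 5 in place of 1. Cfd passed the level filter only through its adult value, so that it could only be higher, and it remained weakly expressed: in adult liver the FPKM of Cfb was 346 times that of Cfd. Of the 6 adipocyte markers, 2 were compared, and 1 of these was called higher, the lipid droplet gene Cidec, at 4.09 FPKM in adult and 0.783 in young liver. The other, Fabp4, lay in the opposite direction, at 17.5 FPKM in adult and 23.3 in young liver, and was not called. Cidec too passed the filter only through its adult value and could only be higher. The hormone gene Adipoq was at 0.0604 FPKM in adult and 0.0521 in young liver, Lep was at 0 in adult liver and Plin1 at 0 at both ages. The adipocyte list summed to 21.7 FPKM in adult and 24.2 in young liver, most of it Fabp4. Neutrophil markers summed to 20.7 FPKM in adult and 22.5 in young liver, and none of the 4 compared was called. Cfd lies on chromosome 10 at 79890853 to 79892656, and none of the other 9 genes compared within 100 kb of it was called. Over all genes compared 7.47% were called, and with so few genes the difference was not tested. Palm, in the same stretch, was too low to be compared. It was at 0.419 FPKM in adult and 0.789 in young liver, with q = 0.0379 in the authors' deposited table.

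None of the 7 regulators was called, 4 being higher and 3 lower in value in adults. Of the soluble ones, Cfi, the protease that degrades C3b and C4b, was at 402 FPKM in adult and 424 in young liver. C4bp, which binds C4b and serves as a cofactor of Cfi, was at 650.5 FPKM in adult and 568 in young liver. Serping1, the C1 inhibitor, was at 462 FPKM in adult and 419 in young liver. Across these 3, q lay between 0.905 and 0.993 in the authors' deposited table. Vtn (vitronectin) and Clu (clusterin) both keep the terminal complex from inserting into membranes, and their values lay in opposite directions. Vtn was at 785 FPKM in adult and 1109 in young liver, a log2 difference of -0.50 with p = 0.0136 and q = 0.163 in the authors' deposited table. Clu was at 693 FPKM in adult and 557 in young liver, with q = 0.556 in the authors' deposited table. Vtn had the lowest log2 difference of all members compared.

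The membrane regulators also lay on either side of 0. Cd59a, which blocks the addition of C9, was at 55.6 FPKM in adult and 43.3 in young liver, with p = 0.0492 and q = 0.372 in the authors' deposited table. Cd55, which breaks up the convertases, was at 6.60 FPKM in adult and 8.61 in young liver, with p = 0.046 and q = 0.358 in the authors' deposited table. Both passed p but not q. The receptors of the peptides released from C3 and C5, found on myeloid cells, were weakly expressed, and C3ar1, the only 1 compared, was not called. C3ar1 was at 1.97 FPKM in adult and 1.52 in young liver, and C5ar1 at 0.940 and 0.633 FPKM in adult and young liver.

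Among complement genes outside the 33, 32 symbols were listed, older names included, 28 were found and 17 were compared. Of these, 2 were called higher and 0 lower, or 11.8%, against 7.47% of all genes compared, with a median log2 difference of 0.03. Susd4, a membrane protein with complement control domains that inhibits C3 convertase formation, was at 11.7 FPKM in adult against 1.53 in young liver (log2 difference 2.33, q = 0.00189 in the authors' deposited table). Itgb2, the beta chain of the integrin receptors for cleaved C3, was at 6.38 FPKM in adult against 2.73 in young liver (log2 difference 0.98, q = 0.00189 in the authors' deposited table). Its partner chain Itgax was at 0.934 FPKM in adult and 0.121 in young liver and was too low to be compared. T and NK cells, which also carry Itgb2, had 4 markers compared, of which 3 were called higher, but all 4 passed the level filter only through their adult values and could only be higher. The 7 genes listed summed to 16.2 FPKM in adult and 3.53 in young liver. Their part in the Itgb2 value was not tested.

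The abundant plasma genes named here from this second list were not called. C1s1, the protease that cleaves C4 and C2, was at 190.0 FPKM in adult and 160.0 in young liver. Of the pentraxins, which bind C1q, Crp was at 468 FPKM in adult and 459 in young liver, and Apcs at 179 in adult and 232 in young liver. The carboxypeptidase N subunits, whose enzyme inactivates the released peptides, were Cpn1 at 83.8 FPKM in adult and 99.1 in young liver and Cpn2 at 59.5 in adult and 65.9 in young liver. Cr1l, known as Crry, a membrane regulator of rodents, was at 35.6 FPKM in adult and 37.9 in young liver. Vsig4, the C3b receptor of Kupffer cells, was at 38.7 and 38.8 FPKM in adult and young liver. Cd59b, a copy of Cd59a, was at 13.4 FPKM in adult and 9.51 in young liver, C1qbp, a C1q-binding mitochondrial protein, at 48.7 in adult and 61.6 in young liver, and the collectin Colec10 at 9.32 in adult and 10.9 in young liver.

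**Figure D4:**
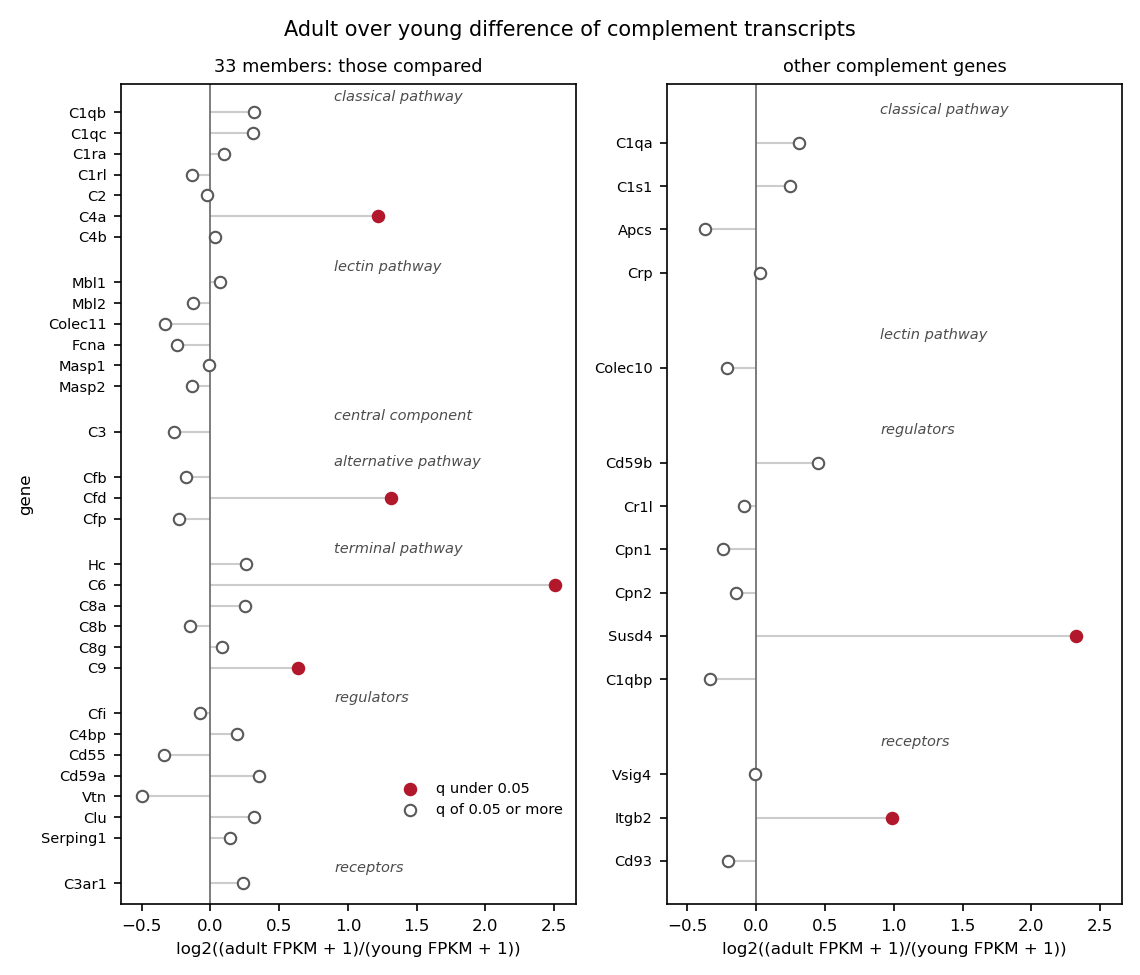
Log2 difference, adult over young on the FPKM + 1 scale, of the 31 members compared (left) and of other complement genes compared (right), by role; filled points have a q-value under 0.05 in the authors' test. The filled members are C6, C9, C4a and Cfd and the other filled genes are Susd4 and Itgb2; each lies to the right of 0.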

How the data were processed

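RNA of 6 liver libraries, 3 per age, was sequenced. Per the submitters' processing notes, the build was GRCm38 and the tools were Cuffdiff, Cufflinks 2.2.1 and TopHat2 2.0.11, with no roles stated. Annotation release, library normalization and kit strandedness were details not given in the sources used here. Per the file headers, the authors deposited 1 FPKM value per gene and age, besides the test score, p-value and q-value of their own comparison. Their log2 column is infinite or extreme where 1 value is near 0 and was not used. Of 32597 rows, 16290 had the status OK, and q was under 0.05 exactly where the authors called a gene significant.

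Here, symbols were matched, folds computed with a pseudocount of 1, and genes with a status of OK and at least 1 FPKM at either age counted by direction, with Python 3.11.15 and pandas 2.3.3. No test of libraries was possible. The counting was tested on simulated data. Words of 50 bases were taken from the members' GENCODE M21 transcripts without retained introns, and were sought in all transcripts of other genes. The members and lists were chosen with earlier results of these data known. All members were named, other complement genes where called or above 10 FPKM (a few are not reported here), and markers where called; other genes named were chosen after their values were seen. Alternatives tried were other pseudocounts, minimums, thresholds, scalings and p adjustments.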

Additional observations from a re-analysis of the deposited data

How the results depend on the processing

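The count of members called, 4 higher and 0 lower, was the same with q under 0.01 or 0.1, with the deposited p-values adjusted by Benjamini-Hochberg over all 16290 tested rows, with no minimum on FPKM and with a minimum difference of 1.5-fold. With a minimum of 5 FPKM, Cfd dropped out and 3 of 29 were called higher. The median log2 difference of the members, 0.0728, kept its sign under each alternative run and was lowest, at 0.0316, with a minimum of 5 FPKM. Pseudocounts of 0.1 and 5 and other scalings cannot change a call, which rests on the deposited q. A pseudocount cannot change a direction either, and the scalings moved the differences very little, that of Mbl1 from 0.0728 to 0.0655 with equal total FPKM. None of 132 such repeats of single members changed direction, but for these reasons that is no test of the directions. The log2 difference of Cfd was 3.31 with a pseudocount of 0.1 and 0.396 with 5, and that of C4a 0.805 with 5. All 33 members kept their side of the q threshold under the other p adjustment. Among the other complement genes, 2 were called higher, and 3 with no minimum on FPKM, which lets in Itgax. No paired analysis was possible because the table holds 1 value per age, and for the same reason no library could be left out. Low transcripts such as C7, C5ar1 and Cfd rest on an unknown number of fragments.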

Other observations

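C4b, C4a, Cfb and C2 lie in the class III part of the major histocompatibility complex on chromosome 17. From C4b to C2, 10 genes were compared and C4a was the only 1 called. Of the 6 that are not members, 0 were called, against 7.47% of all genes compared. With so few genes the difference was not tested. Cyp21a1, between C4b and C4a, was too low to be compared. It was at 0.293 FPKM in adult and 0.0805 in young liver, with q = 0.0395 in the authors' deposited table. The nearest compared gene upstream of C4a, Stk19, was at 6.15 FPKM in adult and 4.19 in young liver, with q = 0.241 in the authors' deposited table. C8a and C8b lie tail to tail on chromosome 4 with 11.1 kb between them, and the ratio of C8a to C8b was 1.90 in adult and 1.44 in young liver. The ratio of C1qb to C1qc was nearly the same at both ages, 1.17 in adult and 1.16 in young liver. Of the 33 members, 10 overlap another listed gene, and in 4 of them (C8g, C2, Masp2 and Cfb) that gene reached 1 FPKM.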
